A study of Mus musculus with 6 samples.

Results

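The neutrophil primary granule genes described here are 10 genes, chosen by name from the 45706 genes of the deposited count table. They comprise the azurophil granule proteins Mpo, Elane, Prtn3 and Ctsg, the enzyme Ctsc that activates the granule serine proteases, the granule proteoglycan Srgn, and the early neutrophil genes Ms4a3, Fcnb, Nkg7 and Hp. Of these 10 genes, 9 passed the filter on low counts, and each of the 9 had at least 108 counts in every library. Fcnb did not pass it. Gene positions are those of the count table (GRCm38).

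LSK cells, the Lin- Sca-1+ c-Kit+ compartment of bone marrow that holds stem and early progenitor cells, were sorted from 6 male C57BL/6 mice and their RNA was sequenced, with 1 RNA-seq library per mouse. The 3 Ctrl mice carried Setd1b HET (FD/+; RC/+), and the 3 cKO mice carried Setd1b HOM (FD/FD; RC/+). FD is the conditional allele, in which loxP sites flank exon 5, and RC is Rosa26-Cre-ERT2, a tamoxifen-dependent Cre that acts in almost all tissues and not in blood cells alone. All 6 mice received tamoxifen by gavage at 4.5 mg per day, on 6 days by the sample labels, and were killed 3 days after the last dose. The paper's methods instead give 5 doses for its inductions, and the difference could not be settled. The Ctrl mice had thus also been exposed to Cre and tamoxifen and could lose their single FD allele. Ctrl and cKO mice were littermates by the study's methods, with no record of which mice shared a litter in the labels. Mice were 16 weeks old, except cKO mouse AH74 with 17 weeks.

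Azurophil granules are the first granules that a developing neutrophil makes. They form at the promyelocyte stage and are packed with myeloperoxidase and serine proteases, which are stored on a proteoglycan matrix. Transcription of these genes starts well before the granules are visible, in progenitors that are primed for the granulocyte/monocyte (GM) fate, and it is shut off again when later granules are formed.

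Total counts per library lay between 13003573 and 21277519. By their running numbers in the table's header, the libraries fall into 2 series that no label describes, Ctrl mouse AI03 with AI02 and AI55 of the cKO in the first and cKO mouse AH74 with Ctrl mice AI54 and AI56 in the second. The targeted gene Setd1b had between 194 and 223 CPM (the count of a gene relative to the total of its library, with TMM normalization) in Ctrl and between 272 and 314 CPM in cKO, higher by 0.46 in log2 units (SE, the standard error, 0.073 and adjusted p = 0.0015). The counts are per gene, so that loss of the small deleted exon is not visible in them. The total was higher in the libraries labelled cKO and gives no check of the labels. In mice taken later after induction, the study found complete recombination by PCR in sorted bone marrow populations. With a primer in the deleted exon, its qRT-PCR found Setd1b mRNA lost in multipotential progenitors. In what follows cKO therefore means the libraries labelled cKO. Both genes that define the sort were present, with group means (Ctrl and cKO) of 452 and 440 CPM for Kit and of 44.4 and 38.1 CPM for Ly6a, which encodes Sca-1, whereas the lineage antigens Ly6g and Cd3e had at most 2 counts in a library. Summed over 9 lineage genes, however, levels were 316 to 354 CPM in Ctrl and 337 to 398 CPM in cKO. Of these 9, 4 were tested, with a median log2 fold change of 0.28. Il7r was lower (25%, against 3.79% of all genes tested). Itgam, the CD11b gene, was higher (0.43, adjusted p = 0.019), as were 3.88% of all genes tested.

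The granule genes did not move as 1 block. Mpo, Elane, Ms4a3, Ctsg, Nkg7 and Prtn3 were lower in cKO at an adjusted p-value under 0.05 (edgeR's quasi-likelihood test, Benjamini-Hochberg adjustment over 15184 genes), with log2 fold changes from -2.89 for Mpo to -0.56 for Prtn3. Hp was at -0.55 and missed the threshold, while Srgn and Ctsc were at 0.10 and 0.08. Thus 6 of the 9 tested genes fell, against 3.79% of all genes tested, with 4 past a 2-fold fall, against 1.05%. Without overlap between the groups, 6 of the 9 were lower in cKO, against 13.4% of all genes tested. In edgeR's test 0 members were higher past the threshold, where 3.88% of all genes were, also 0 at an unadjusted p under 0.05, and DESeq2 gave 0 as well. The median log2 fold change was -0.855 over the 9 genes and 0 over all genes. The study itself had named Mpo and Elane from these libraries, so the counts are not independent evidence of a direction. In sorted bulk cells, fewer cells with a transcript and less of it per cell cannot be told apart.

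**Figure D1:**
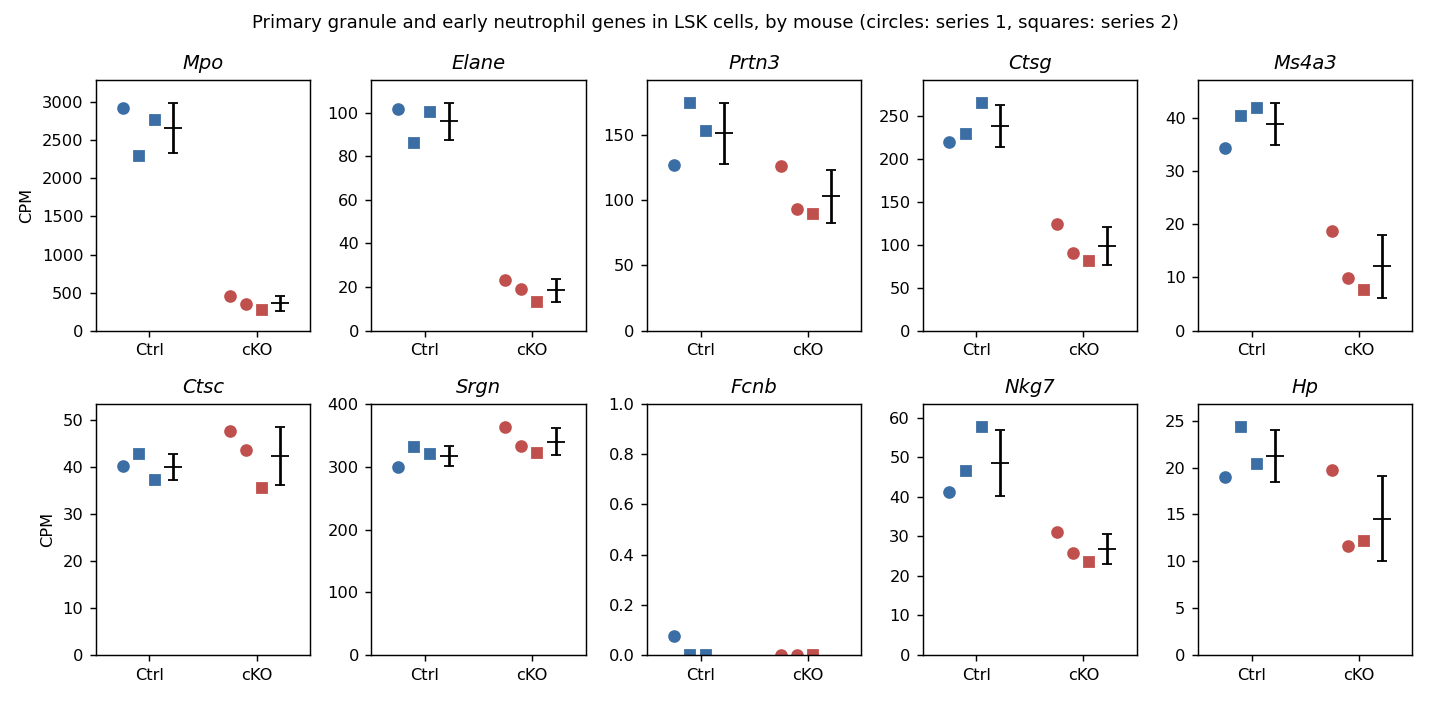
CPM of the 10 genes in each mouse, in Ctrl (blue) and cKO (red); circles are the first library series and squares the second, and black bars give mean ± SD of 3 mice. Mpo, Elane, Ctsg and Ms4a3 separate the groups widely, Prtn3 by 1 CPM, Hp, Ctsc and Srgn overlap, and Fcnb is near 0.

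Mpo (ENSMUSG00000009350, chromosome 11, 87793581 to 87804413, plus strand) encodes myeloperoxidase, the heme enzyme that makes hypochlorous acid and the most abundant protein of the granule. It had 2933, 2299 and 2773 CPM in Ctrl mice AI03, AI54 and AI56, and 460, 354 and 265 CPM in cKO mice AI02, AI55 and AH74. The lowest Ctrl mouse lay far above the highest cKO mouse. The change was -2.89 in log2 units (SE 0.15, adjusted p = 1.6e-08), a 7.42-fold lower level and the fifth smallest p-value among all genes tested. Within the library series the difference was -2.86 and -3.25.

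The neutrophil serine proteases fell by very different amounts. Elane (ENSMUSG00000020125, chromosome 10, 79886312 to 79888216, plus strand) encodes neutrophil elastase, the gene most often mutated in severe congenital and cyclic neutropenia. It had 102, 86.1 and 100 CPM in Ctrl (AI03, AI54, AI56) and 23.2, 19.2 and 13.0 CPM in cKO (AI02, AI55, AH74). The groups were far apart, with a change of -2.37 in log2 units (SE 0.15, adjusted p = 9.1e-08) and within-series differences of -2.26 and -2.83.

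Ctsg (ENSMUSG00000040314, chromosome 14, 56099881 to 56102574, minus strand) encodes cathepsin G, a protease with chymotrypsin-like specificity that mast cells also store. Its level was 220, 229 and 265 CPM in the Ctrl mice (AI03, AI54, AI56) and 123, 90.7 and 81.2 CPM in the cKO mice (AI02, AI55, AH74). Ctrl and cKO values did not overlap, but the fall was smaller than that of Elane, with a change of -1.27 in log2 units (SE 0.12, adjusted p = 1.2e-05). The 2 series gave -1.05 and -1.60.

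Prtn3 (ENSMUSG00000057729, chromosome 10, 79874476 to 79883174, plus strand) encodes proteinase 3, the target of the autoantibodies of granulomatosis with polyangiitis. It ends 3.14 kb before the start of Elane, on the same strand. Its CPM were 127, 174 and 153 in Ctrl (AI03, AI54, AI56) and 126, 93.1 and 89.8 in cKO (AI02, AI55, AH74). The groups were separated by a narrow margin only, since Ctrl mouse AI03 and cKO mouse AI02 of the same series had nearly equal values. The change was -0.56 in log2 units (SE 0.12, adjusted p = 0.011), with -0.23 in the first series and -0.86 in the second. Prtn3 missed the threshold without cKO mouse AI55 (-0.49, adjusted p = 0.079), without cKO mouse AH74 (-0.47, adjusted p = 0.057) and with DESeq2's Wald test (-0.56, adjusted p = 0.072).

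Because each ratio of members comes from a single library, the proteases could be set against Mpo and against each other free of library scaling, as CPM per kb of exon length. For each 100 units of Mpo there were 12.9 to 13.9 units of Elane in the Ctrl mice and 18.2 to 20.2 in the cKO mice. For Ctsg the range was 25.6 to 34.1 in Ctrl and 87.6 to 105 in cKO, and for Prtn3 the means were 11.5 ± 3.25 in Ctrl and 57.8 ± 8.04 in cKO (SD, n = 3 mice each), with a lowest cKO value of 52.0. Ctrl and cKO mice did not overlap in any of these ratios, and the mean ratios were 1.42-fold, 3.07-fold and 5.02-fold higher in cKO. Between the adjacent genes, Prtn3 per 100 Elane was 85.0 ± 20.8 in Ctrl and 305 ± 56.9 in cKO (SD, n = 3 mice each). For each of the 5 ratios compared, the last being Ctsg against Elane, the two-sided exact permutation test gave p = 0.1 (0.1 after Benjamini-Hochberg adjustment), the smallest p that 3 mice against 3 allow.

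**Figure D2:**
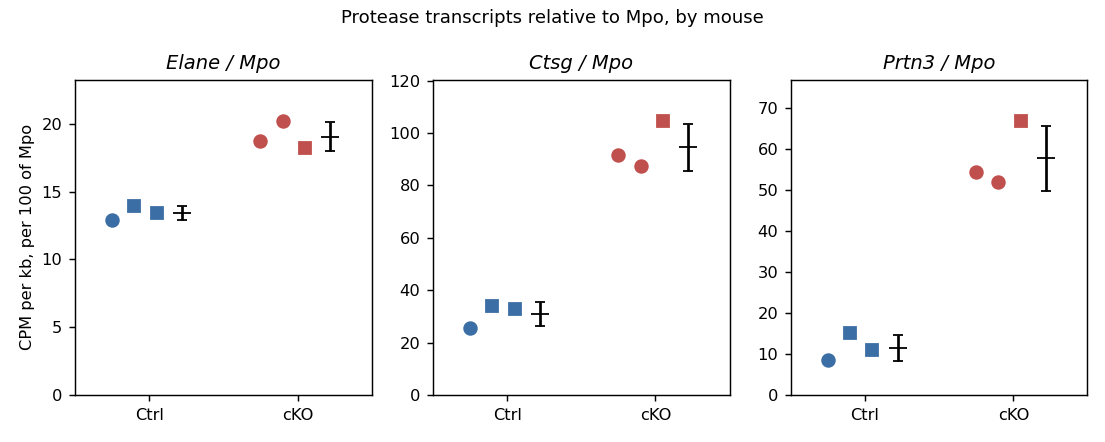
Elane, Ctsg and Prtn3 transcripts per 100 of Mpo (CPM per kb of exon length) in each mouse, with Ctrl in blue, cKO in red, circles for the first and squares for the second library series and black bars for mean ± SD of 3 mice. The shift is smallest for Elane (1.42-fold) and largest for Prtn3 (5.02-fold) of these 3 ratios.

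The enzyme and the matrix that the proteases depend on did not pass the test in either direction. Ctsc (ENSMUSG00000030560, chromosome 7, 88278085 to 88310888, plus strand) encodes cathepsin C, also called dipeptidyl peptidase I, which removes the N-terminal dipeptide from the serine proteases and so turns them into active enzymes. It had 40.2, 42.6 and 37.1 CPM in Ctrl (AI03, AI54, AI56) and 47.6, 43.6 and 35.5 CPM in cKO (AI02, AI55, AH74), and cKO mice lay both above and below all Ctrl mice. The log2 fold change was 0.08, with an approximate 95% interval from -0.13 to 0.29 and an adjusted p of 0.72.

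Srgn (ENSMUSG00000020077, chromosome 10, 62493833 to 62527451, minus strand) encodes serglycin, the core protein of the proteoglycan that holds granule contents in neutrophils and in many other blood cells. Ctrl mice had 300.3, 332 and 321 CPM (AI03, AI54, AI56) and cKO mice had 364, 334 and 323 CPM (AI02, AI55, AH74), with overlap. The log2 fold change was 0.10, with an interval from -0.03 to 0.23 and an adjusted p of 0.42. For both genes the interval excludes a fall of the size measured for Prtn3.

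The early neutrophil genes differed among themselves. Ms4a3 (ENSMUSG00000024681, chromosome 19, 11629496 to 11640851, minus strand), a membrane protein gene that is switched on in committed GM progenitors, had 34.4, 40.3 and 41.9 CPM in Ctrl (AI03, AI54, AI56) and 18.7, 9.91 and 7.57 CPM in cKO (AI02, AI55, AH74). The groups did not overlap, and the change was -1.69 in log2 units (SE 0.22, adjusted p = 2.7e-04). The 2 library series gave -1.33 and -2.42, and leaving out each mouse in turn gave values from -2.15 to -1.45.

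Nkg7 (ENSMUSG00000004612, chromosome 7, 43437073 to 43438246, plus strand), a granule membrane protein gene best known from cytotoxic lymphocytes, had 41.2, 46.4 and 57.6 CPM in Ctrl (AI03, AI54, AI56) and 31.02, 25.8 and 23.6 CPM in cKO (AI02, AI55, AH74). It fell without overlap between the groups, by 0.855 in log2 units (SE 0.13, adjusted p = 8.2e-04). Markers of cytotoxic lymphocytes were scarce, with summed levels over 9 genes from 9.98 to 16.9 CPM in Ctrl and from 6.52 to 8.51 CPM in cKO. Of 4 tested, with a median log2 fold change of -0.69, 1 was lower (25%, against 3.79% of all genes) and 3 did not pass. The lower gene was Ccl5 (-0.96, adjusted p = 0.031). Cd3e had at most 1 count in a library, and the part of these markers in the Nkg7 values was not tested.

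Hp (ENSMUSG00000031722, chromosome 8, 109575130 to 109579172, minus strand) encodes haptoglobin, which binds free hemoglobin and which neutrophil precursors make for storage in their later, specific granules. It had 19.0, 24.4 and 20.3 CPM in Ctrl (AI03, AI54, AI56) and 19.8, 11.6 and 12.2 CPM in cKO (AI02, AI55, AH74). Of the cKO mice, AI02 lay within the Ctrl range. The log2 fold change was -0.55 (interval -0.90 to -0.20, adjusted p = 0.076). It passed without AI02 (-0.84, adjusted p = 0.0065) and without a filter on low counts (-0.55, adjusted p = 0.0025).

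Fcnb (ENSMUSG00000026835, chromosome 2, 28076378 to 28084885, minus strand) encodes ficolin B, a lectin of neutrophil precursors beyond the stem and progenitor stage. It had 1 count in Ctrl mouse AI03 and 0 in the other libraries. A count of 0 allows up to 3 counts, which are 0.143 to 0.23 CPM over the 6 libraries (counting error only), so that a difference was not detectable at this depth.

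**Figure D3:**
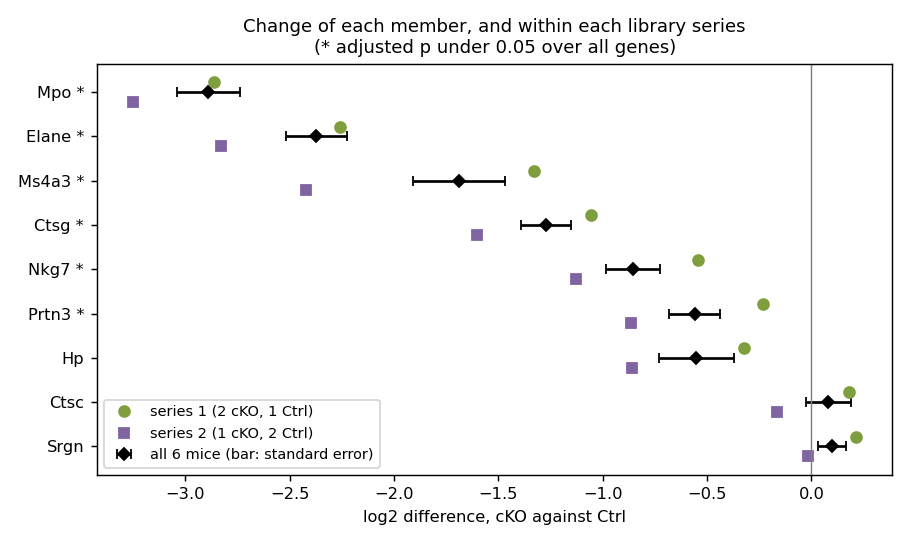
Log2 difference between cKO and Ctrl for the 9 tested genes, over all 6 mice with its standard error (black diamonds) and as the difference of mean log2 CPM within the first (green circles) and the second (purple squares) library series. Diamonds run from -2.89 for Mpo to 0.10 for Srgn and within-series values from -3.25 to 0.21, and in each gene the second series, with the single cKO mouse AH74, lies to the left of the first.

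The cKO mice stood in a like order for most members. AI02 had the highest cKO value of each of the 9, and AH74 had the lowest of 8, Hp being the exception. Among Ctrl mice the order was mixed, with AI03 lowest for 6 genes and highest for 2, Mpo and Elane. With the library series as a covariate 6 members still passed, Mpo at -3.05 (adjusted p = 2.0e-10) and Prtn3 at -0.54 (adjusted p = 0.022) among them. Since AH74 is the only cKO mouse of its series and the only mouse of 17 weeks, mouse, age and series cannot be told apart in these differences.

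On a scale per kb of exon length, which allows genes to be compared, the order of levels changed between the groups. In Ctrl, Mpo was first with a mean of 779 CPM per kb, followed by Ctsg with 238, Srgn with 145, Elane with 104, Prtn3 with 87.5, Nkg7 with 55.2, Ms4a3 with 20.6, Hp with 15.8 and Ctsc with 6.89. Only the neighbours Elane and Prtn3 overlapped among the Ctrl mice in this order. In cKO, Srgn was first with 155 CPM per kb, ahead of Mpo with 105, Ctsg with 98.3, Prtn3 with 59.5, Nkg7 with 30.5, Elane with 20.1, Hp with 10.8, Ctsc with 7.28 and Ms4a3 with 6.40. There, Mpo and Ctsg, Elane and Hp, and Ctsc and Ms4a3 overlapped as neighbours. All 10 genes together took 0.354% ± 0.030 of all counts in Ctrl and 0.104% ± 0.020 in cKO (SD, n = 3 each), and Mpo alone made up 70.2% to 76.8% of this sum in Ctrl and 31.2% to 37.9% in cKO.

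To show what lies before genes that moved by different amounts, the 200 bases upstream of the RefSeq start are given for Mpo and the 3 serine proteases, and for Ctsc as a member that did not pass the test. They are in GRCm38.p6, 5′ to 3′ on the strand of the gene, from RefSeq, which held a promoter for 9 of the 10 members. Capitals mark matches, on either strand, to the letters searched for 4 factors of granulopoiesis, namely TTGCNNAA for C/EBP, AGGAAG for PU.1 and other Ets factors, TGTGGT for RUNX and TAACNG for MYB.
Mpo (chr11:87793584-87793783, plus strand): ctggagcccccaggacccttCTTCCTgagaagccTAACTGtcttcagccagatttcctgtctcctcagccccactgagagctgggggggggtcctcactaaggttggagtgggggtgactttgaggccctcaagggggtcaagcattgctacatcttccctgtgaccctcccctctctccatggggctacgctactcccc
Elane (chr10:79886112-79886311, plus strand): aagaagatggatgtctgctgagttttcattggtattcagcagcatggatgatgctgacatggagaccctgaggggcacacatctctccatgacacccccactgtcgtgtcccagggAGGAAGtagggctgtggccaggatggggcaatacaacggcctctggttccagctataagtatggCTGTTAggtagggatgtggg
Prtn3 (chr10:79879467-79879666, plus strand): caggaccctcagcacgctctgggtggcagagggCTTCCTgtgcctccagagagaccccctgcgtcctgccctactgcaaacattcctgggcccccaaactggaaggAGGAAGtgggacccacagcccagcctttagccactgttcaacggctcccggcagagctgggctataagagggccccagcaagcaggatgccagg
Ctsg (chr14:56102575-56102774, minus strand): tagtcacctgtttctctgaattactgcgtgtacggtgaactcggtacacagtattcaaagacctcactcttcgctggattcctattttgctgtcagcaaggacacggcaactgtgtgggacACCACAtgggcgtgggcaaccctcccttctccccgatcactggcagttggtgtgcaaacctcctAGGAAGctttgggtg
Ctsc (chr7:88277885-88278084, plus strand): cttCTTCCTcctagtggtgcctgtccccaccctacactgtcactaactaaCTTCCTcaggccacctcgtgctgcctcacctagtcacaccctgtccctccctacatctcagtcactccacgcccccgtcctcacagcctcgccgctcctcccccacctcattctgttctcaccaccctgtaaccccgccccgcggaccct

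The members had 10 windows of 300 bases around a start (250 bases before to 50 after), Srgn having 2 of them. PU.1 letters lay in 8 of these 10 windows, from 8 of the 9 members, and in 35.4% of 32851 promoter windows of the same length. Both Srgn windows were without them. They occur in Ctsc, which did not pass the test, as in Mpo and Elane, which fell. Within the printed bases, Elane has them from 84 bases before the start, Prtn3 from 94 and 167 bases before it, and Ctsg from 15 bases before it. The RUNX letters were found in 3 of the 10 windows (16.8% of all windows). The MYB letters were in 2 (23.3%), those of Mpo and Elane, and the C/EBP letters in 2 (10.8%), those of Fcnb and Ms4a3. These are matches of letters and say nothing of binding. The Prtn3 window belongs to a start 5.19 kb inside the gene as counted, and the counts do not tell its starts apart. The printed Mpo bases also lie inside the gene as counted, which starts at 87793581.

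Most genes near the members on the chromosome did not pass the test. Of 38 tested genes that start within 100 kb of a member, 4 were lower past the threshold (10.5%, against 3.79% of all genes). None was higher, where 3.88% of all genes were. In either direction 7.67% of all genes were called. Around Elane and Prtn3, 12 tested genes lay between -0.51 and 0.15 in log2 units, with adjusted p-values from 0.079 upward. The most negative of these, Prss57, encodes a further serine protease of the azurophil granule and had 18.0 CPM in Ctrl and 12.7 CPM in cKO (adjusted p = 0.086). The 4 called genes were Ms4a2 beside Ms4a3, Gm11505 within Mpo, Cd33 near Nkg7 and Ddx21, an RNA helicase gene, near Srgn. Cd33 lost its call with the library series as a covariate (-0.72, adjusted p = 0.080) and without Ctrl mouse AI54, cKO mouse AI02 or cKO mouse AH74. Ms4a2, the beta chain of the high-affinity IgE receptor of mast cells and basophils, fell from 24.4 to 2.08 CPM (log2 fold change -3.54, adjusted p = 1.5e-08). Gm11505 is annotated as antisense to Mpo and had 18, 34 and 19 counts in Ctrl and 5, 1 and 1 counts in cKO, against 3780 to 48221 counts of Mpo on the other strand. With a window of 50 kb 2 of 25 neighbours were called (8%, against 7.67% of all genes). With 250 kb it was 10 of 88 (11.4%), 9 lower and 1 higher.

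**Figure D4:**
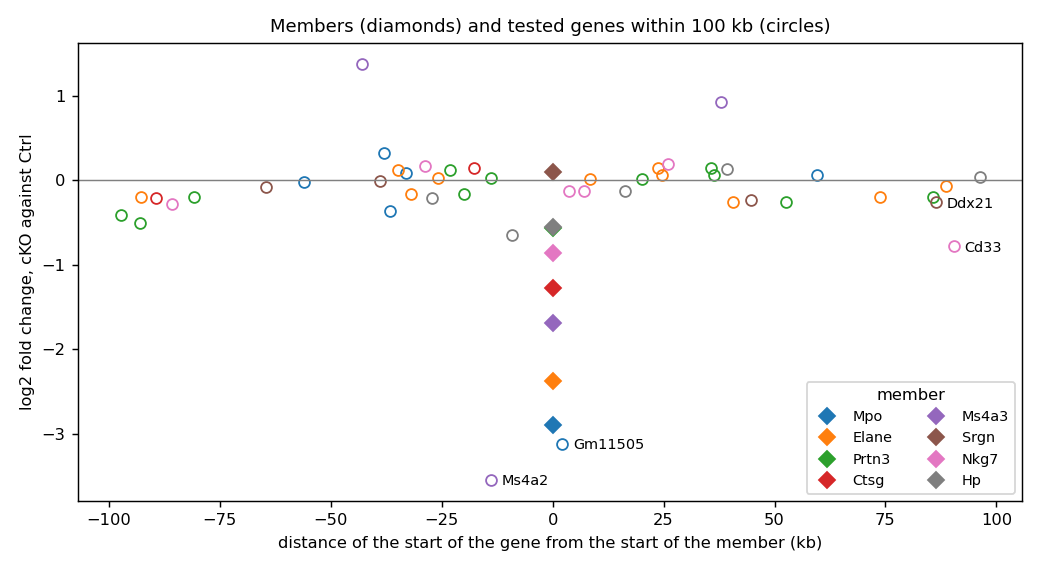
Log2 fold change (cKO against Ctrl) of members (diamonds, at 0) and of tested genes that start within 100 kb of them (circles), against the distance between the starts in kb. The 4 neighbours past the threshold are named, and most other circles lie near 0, also beside strongly lowered members such as Elane.

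Most of the other genes of the granule pathway did not pass the test. In a list of 16 further azurophil proteins and lysosomal enzymes of these granules, 14 were tested, 2 were lower (14.3%, against 3.79% of all genes) and 12 did not pass, with a median log2 fold change of -0.19 and 1 to 4 lower without 1 mouse. Those lower were Hexa, a subunit of beta-hexosaminidase (log2 fold change -0.40, adjusted p = 0.0031), and Cd68, a lysosomal membrane glycoprotein gene (-0.60, adjusted p = 0.030). Cd68 lost its call with the library series as a covariate (-0.58, adjusted p = 0.058) and without Ctrl mouse AI54, Ctrl mouse AI56, cKO mouse AI55 or cKO mouse AH74. Cd63, a membrane protein of azurophil granules, was at -0.05, and Bpi, the bactericidal/permeability-increasing protein, had at most 4 counts in a library. Of 15 genes of granule biogenesis and release, 2 were lower (13.3%, against 3.79% of all genes), the ER protein gene Jagn1 (-0.51, adjusted p = 0.023) and the glucose-6-phosphatase gene G6pc3 (-0.36, adjusted p = 0.019). Mutations of both are known from congenital neutropenia, as are those of Hax1 and Vps45, which were at -0.02 and -0.03 (adjusted p = 0.95 and 0.91). The calls of Jagn1 and G6pc3 were both lost without Ctrl mouse AI54, without Ctrl mouse AI56 or without cKO mouse AH74. Jagn1 also lost its call without cKO mouse AI02, and G6pc3 without cKO mouse AI55. The median of the list was 0.01, and the sorting subunit Ap3b1 was at 0.01 and the release factor Unc13d at 0.04.

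Among inhibitors of granule proteases, 2 of 8 tested genes were lower (25.0%, against 3.79% of all genes). A further 2 were higher, where 3.88% of all genes were, and 4 did not pass. Slpi, the secretory leukocyte inhibitor of elastase and cathepsin G, fell by 1.91 in log2 units (adjusted p = 0.0013), from 7.33 to 1.96 CPM. Cst7, or cystatin F, an inhibitor of cathepsin C, fell by 0.50 (adjusted p = 0.034), a call that was lost with the library series as a covariate (-0.48, adjusted p = 0.061) and without Ctrl mouse AI54, cKO mouse AI55 or cKO mouse AH74. Serpina3g and Serpinb6b, members of the serpin family, rose by 0.37 and 0.58 (adjusted p = 0.0088 and 0.022). Serpinb6b lost its call without Ctrl mouse AI03, Ctrl mouse AI54, cKO mouse AI55 or cKO mouse AH74. For the enzymes that build the sugar chains of serglycin, 1 of 14 genes passed and was higher, where 3.88% of all genes were. It was Csgalnact1, which starts chondroitin sulfate chains, at 0.57 (adjusted p = 0.019), and the median of the list was -0.085. The call of Csgalnact1 was lost without Ctrl mouse AI54, Ctrl mouse AI56 or cKO mouse AH74.

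Among 13 transcription factors and receptors of granulopoiesis, 3 were lower (23.1%, against 3.79% of all genes) and 10 did not pass, with a median of -0.08. Irf8, which favours monocytes over neutrophils, fell by 0.78 (adjusted p = 7.6e-04), Cebpa, required for the step to GM progenitors, by 0.68 (adjusted p = 5.2e-04) and Csf3r, the G-CSF receptor gene, by 0.33 (adjusted p = 0.033). Csf3r lost its call with the library series as a covariate (-0.30, adjusted p = 0.059) and without Ctrl mouse AI56, cKO mouse AI55 or cKO mouse AH74. Cebpe, a factor of later granule formation, had the most negative value of the list, -0.97, and missed the threshold (adjusted p = 0.10). It had 2.95 CPM in Ctrl and 1.49 CPM in cKO. The groups did not overlap, but 13.4% of all genes tested were lower in cKO without overlap. Runx1, Myb, Gfi1 and Spi1, which encodes PU.1, lay between -0.19 and -0.03 with adjusted p-values from 0.20 upward. Of 14 other genes of GM progenitors and early neutrophils, 6 were lower (42.9%, against 3.79% of all genes) and 8 did not pass, with a median of -0.53. Clec12a, an inhibitory myeloid lectin receptor gene, fell from 80.3 to 21.5 CPM (-1.90, adjusted p = 8.9e-07). Ly6c2, which encodes Ly6C (-1.56, adjusted p = 0.0016), and Fcgr3, an Fc receptor gene (-1.34, adjusted p = 0.0031), were lower as well.

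**Figure D5:**
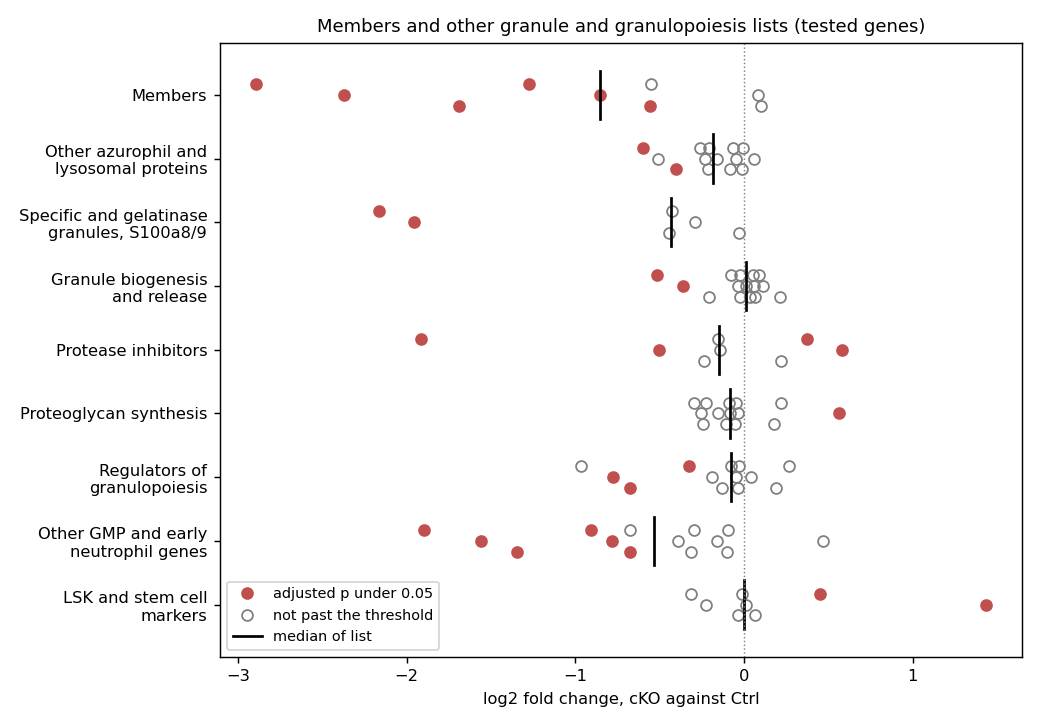
Log2 fold change (cKO against Ctrl) of each tested gene in the members and in 8 further lists, with filled red points for genes at an adjusted p under 0.05, open grey points for the others and black lines for list medians. The median is -0.855 for the members, -0.53 for other genes of GM progenitors and early neutrophils, and between -0.44 and 0.01 for the other lists plotted, which do not include the markers of mast cells, macrophages and lymphocytes.

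Several products of later granules were near 0, and others were not. Of 16 genes of specific and gelatinase granules and late neutrophils, 6 were tested and 2 were lower (33.3%, against 3.79% of all genes). Camp and Retnlg had at most 1 and 4 counts in a library. S100a8 and S100a9, calcium-binding proteins of mature neutrophils, fell from 2.03 and 1.43 CPM to 0.50 and 0.31 CPM (adjusted p = 0.036 and 0.030). Both calls were lost without Ctrl mouse AI56 or without any one of the cKO mice, and that of S100a8 also without Ctrl mouse AI03. Summed over the list, Ctrl libraries had 69.0 to 77.7 CPM and cKO libraries 54.0 to 69.0 CPM, most of it from the oxidase subunit genes Cyba (35.2 CPM in Ctrl and 34.4 in cKO) and Cybb (18.0 and 14.7 CPM). Mpo alone was above this sum in every library.

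Among markers of other cells, those of mast cells, basophils and eosinophils, taken as 1 list, were lower in most tested genes. Over 12 genes of mast cells, basophils and eosinophils the summed level was 67.0 to 87.0 CPM in Ctrl and 19.6 to 27.3 CPM in cKO. Of 8 tested genes 6 were lower (75%, against 3.79% of all genes), with a median log2 fold change of -3.49. The eosinophil genes Ear1 and Ear2 had at most 3 counts in a library. Besides Ms4a2, the lower genes were Gzmb, Prss34, Prg2, Cpa3 and Cma1, whereas the basophil protease gene Mcpt8 was at 0.15 (adjusted p = 0.77). Ctsg and Ms4a3 are used by mast cells or basophils too, and the part of such cells in their values was not tested. Over 8 macrophage genes the sums were 38.5 to 44.6 CPM in Ctrl and 23.4 to 28.8 CPM in cKO. Of these, 3 of 8 were lower (37.5%, against 3.79% of all genes), Csf1r, Cd5l and Vcam1. The other 5 did not pass, Adgre1, the F4/80 gene, among them at 0.98 (adjusted p = 0.27). Over 8 LSK and stem cell markers the sums overlapped, at 1283 to 1456 CPM and 1300 to 1392 CPM. Of these 8 markers, 2 were higher in cKO, where 3.88% of all genes were. They were Procr, the stem cell antigen EPCR (log2 fold change 1.43, adjusted p = 3.6e-04), and the stem cell factor gene Mecom (0.45, adjusted p = 0.0032). Flt3, a receptor of lymphoid and myeloid progenitors, was at -0.31 (adjusted p = 0.12). The paper described the LSK composition at this time as largely like that of controls, without showing data. By qRT-PCR it found Mpo lower in cKO in the LSK material used for the profiling, and in sorted multipotential progenitors of 2 mouse pairs. Whether a changed mix of cells within the gate takes part in the values of the granule genes was not tested here.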

How the data were processed

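The authors used GSNAP to align the reads to GRCm38/mm10. Fragments with a unique alignment and a mapping quality of at least 1 were assigned by featureCounts 1.5.0 to Ensembl genes in a strand-specific way. What was deposited are the raw counts of 45706 genes, with 1 library per mouse, and columns were matched to mice by name. Gene lengths are the summed exon lengths deposited with the counts. Gene symbols came from GENCODE M21 by identifier (98.8% of genes).

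The counts were normalized by TMM and analysed in edgeR 4.0.16 (R 4.3.3). Genes passed filterByExpr at its defaults (15184 genes), and genotype was fitted to the 6 libraries by the quasi-likelihood method. P-values were adjusted by Benjamini-Hochberg over all genes tested, at 0.05. Standard errors were derived from the log2 fold change and the F statistic, and the 95% intervals are approximate (normal). Log2 CPM used a prior count of 2. CPM per kb is CPM divided by exon length. The procedure was tested on simulated data. Some items are not reported by name.

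The members and lists were chosen with earlier results of these data known. The genes named are the members, Setd1b, genes within 100 kb of a member, up to 5 genes per list by adjusted p with defining genes near 0, and the 5 genes most like Mpo. Other list genes (Cd63, Ap3b1, Unc13d, Prss57, Runx1, Myb, Gfi1, Spi1, Mcpt8, Kit, Ly6a, Flt3, Cebpe, Hax1, Vps45, Adgre1, Cyba, Cybb, Il7r and Itgam) were named for their role after their values had been seen. Alternatives were DESeq2 1.42.0 size factors, DESeq2's Wald test, no filter, at least 10 counts in every library, the library series as a covariate, removal of genes above 1% of a library, removal of the length trend (loess, span 0.3), a threshold of 0.01, and leaving out each mouse.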

Additional observations from a re-analysis of the deposited data

How the results depend on the processing

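The number of members lower in cKO stayed between 5 and 7 over 14 alternatives, and 6 passed with the library series as a covariate. Mpo, Elane, Ctsg, Ms4a3 and Nkg7 kept their direction and their side of the threshold in all 14. Prtn3 lost its call in 4, among them a threshold of 0.01, and Hp gained one in 2. Ctsc turned to -0.014 (adjusted p = 0.964) without cKO mouse AI02, its values without 1 mouse running from -0.014 to 0.187 with no call. Setd1b stayed between 0.37 and 0.50.

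Over all genes, 1164 were called, 513 at a threshold of 0.01 and between 604 (without cKO mouse AI55) and 1125 without 1 mouse, with 665 without Ctrl mouse AI56 and 739 without cKO mouse AH74. Lower genes numbered 575, with 272 at 0.01, 873 with no filter on low counts, and 308 (without cKO mouse AI55) to 594 without 1 mouse. In the other granule and granulopoiesis lists, 17 genes were lower and 3 higher, against 9 and 1 at 0.01. Without 1 mouse, 9 to 18 were lower, the least without cKO mouse AH74, and 1 to 3 higher. By list, 0% to 42.9% of the tested genes were lower at 0.05, against 3.79% of all genes. Higher genes made up 3.88% of all genes tested, and the 3 higher list genes are not read as a result. The difference in the share of counts on members was -0.250 percentage points, -0.305 once genes above 1% of a library had been left out of the total, and -0.266 to -0.236 without 1 mouse. Of the neighbours, 4 of 38 were called within 100 kb (10.5%), 2 of 25 within 50 kb (8%) and 10 of 88 within 250 kb (11.4%). Of all genes 7.67% were called.

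No paired analysis was possible because the labels give no replicate numbers or litters that tie Ctrl to cKO mice, although the mice were littermates. Genes such as Fcnb are limited by depth, since 3 counts correspond to 0.143 to 0.23 CPM. Each fit that left out a mouse rested on 5 libraries.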

Other observations

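Among 9513 genes with a mean of at least 10 CPM, those whose log2 CPM followed Mpo most closely over the 6 mice were Rgs18, Tarsl2, Rab44, Muc13 and Svip, with Pearson r from 0.994 to 0.999. The correlation is a description over 6 libraries that fall into 2 genotypes, so that any gene with a clear difference between the groups scores high. Muc13, a transmembrane mucin gene, had 268 ± 27.6 CPM in Ctrl and 35.5 ± 4.34 CPM in cKO (SD, n = 3 each). Its log2 fold change was -2.91 (adjusted p = 1.1e-10), the smallest p-value of all genes tested and a fall of the same size as that of Mpo. Rab44, which encodes a large Rab GTPase, fell by 1.48 (log2; adjusted p = 9.1e-08), and Rgs18, a regulator of G protein signaling, by 1.26 (adjusted p = 9.0e-07). Tarsl2, a threonyl-tRNA synthetase gene, fell by 0.40 (adjusted p = 0.016), and Svip, which encodes an inhibitor of ER-associated degradation, was at -0.28 without passing the threshold (adjusted p = 0.18).

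Among the members themselves, Mpo and Elane had a Pearson r of 0.998 over the 6 mice, and Prtn3 followed Hp (0.967) and Ms4a3 (0.942) more closely than Mpo (0.834). Srgn and Ctsc had 0.686 with each other and -0.521 and -0.134 with Mpo. The series and the genotypes are shared by all these values.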
